A study of Mus musculus with 143 samples.

Results

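The effect of Exosc10 loss on the RNA of growing mouse oocytes was read from single oocytes of postnatal day 20 (p20). The comparison uses 8 oocytes labelled as Exosc10 conditional knockout (cKO) and 8 control oocytes, chosen by the sample titles, which makes 16 of the 143 samples of the study. The mutant females were made with CRISPR/Cas9, per the labels, and each library holds the RNA of 1 oocyte after depletion of ribosomal RNA (RiboMinus), with random hexamers for reverse transcription and ERCC spike-in RNA added. 2 further p20 genotypes of 8 oocytes each, Dis3 cKO and the double knockout of both genes (dcKO), share the statistical fit and are used only where a value is set beside them. The driver that deletes the gene, the strain background, litters and the number of females behind each group are not given in the sources used here, nor is any treatment that all groups share. Titles split each group into tags 1 and 2 with 4 oocytes each. The labels do not say what a tag is, and if oocytes of a tag share a female, p-values over oocytes are too small.

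EXOSC10 is a ribonuclease of the nuclear RNA exosome, a barrel-shaped complex that trims and degrades RNA from its 3′ end. It works beside DIS3, the other catalytic subunit, and is known for maturation of ribosomal and small nucleolar RNA in the nucleolus and for removal of aberrant and short-lived nuclear transcripts. A growing oocyte transcribes heavily and stores messages for egg and embryo, among them those for the zona pellucida and for maternal effect proteins.

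The targeted gene was examined first. Exosc10 (ENSMUSG00000017264, chr4:148558419-148582401 in GRCm38.p6) had 103, 118 and 137 CPM (counts per 1000000 gene counts, scaled by TMM) as lowest, median and highest control value. In the Exosc10 cKO libraries these values were 0.352, 1.95 and 10.6 CPM. All 8 knockout libraries lay below all 8 controls, and the log2 fold change was -5.22 with a standard error (SE) of 0.41 (adjusted p = 1.52e-11). For single genes, adjusted p here always means the Benjamini-Hochberg value of the edgeR quasi-likelihood test over all genes tested, and a gene is called when it is under 0.05. The deleted stretch of the gene is not given in the sources used here, so whether the remaining counts lie outside it was not tested. Dis3, the partner ribonuclease, had 6.27, 13.9 and 20.1 CPM in controls and 11.4, 16.0 and 22.8 in Exosc10 cKO, and the groups overlapped (log2 fold change 0.28, SE 0.23, adjusted p = 0.546). Dis3 overlaps Pibf1 in the annotation.

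Libraries held 16043788 to 19702270 gene counts in controls and 16252900 to 23801344 in Exosc10 cKO, and the correlation of 2 libraries ranged from 0.948 to 0.985. ERCC counts ranged from 12185 to 18566 apart from 1 library, Exosc10 cKO 2_4 (tag 2, oocyte 4), with 30820. Gene counts per ERCC count, an estimate of captured RNA per oocyte, were 1267 ± 178 (SD, n = 8) in controls and 1229 ± 285 (SD, n = 8) in Exosc10 cKO, a log2 difference of -0.08 (2-sided exact permutation test, p = 0.771). Without Exosc10 cKO 2_4 the difference was 0.07 (p = 0.461). The summed CPM of 14 oocyte markers, led by Gdf9, Bmp15 and Zp2, was 13090 to 16510 in controls and 14130 to 16080 in Exosc10 cKO. The 3 called members, Zp3, Zp1 and Kit, were all lower (21.4% lower, against 3.5% of all genes tested), 8 of the 14 were at an unadjusted p under 0.05, and with ERCC scaling 1 was called. Kit, the receptor through which granulosa cells support the oocyte, had medians of 719.5 and 578 CPM (log2 fold change -0.30, SE 0.08, adjusted p = 0.017). 19 granulosa cell markers summed to 431 to 499 CPM in controls and 393 to 477 in Exosc10 cKO, led by Serpine2, Nr5a2 and Esr2, with 0 of 15 tested members called by edgeR, 5 at an unadjusted p under 0.05 and 1 called by DESeq2. 12 theca and stroma markers summed to at most 5.77 CPM in any library, with Acta2 and Insl3 at 0. 12 blood and endothelial markers summed to 59.9 to 82.9 CPM in controls and 72.7 to 117 in Exosc10 cKO, led by Pecam1, while Cdh5 and the hemoglobin genes Hba-a1, Hba-a2, Hbb-bs and Hbb-bt were at 0 in all 16 libraries.

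Of 15882 genes tested, 1183 differed between Exosc10 cKO and control (7.45%). 627 were higher (3.95%) and 556 lower (3.5%), so the calls were split almost evenly, and the median log2 fold change of all genes tested was 0.01. The change was at least 2-fold for 344 of the higher and 189 of the lower genes. In 280 genes (1.76%) the 8 and 8 libraries did not overlap at all, and 261 of these were also called, 107 higher and 154 lower. Scaling to ERCC counts left 364 calls, 214 higher and 150 lower. Summing the counts per tag, which treats a tag and not an oocyte as the sample, left 174, 112 higher and 62 lower. Tag 1 alone gave 615 calls and tag 2 alone 431, and 167 genes were called with all oocytes and within each tag. Within a genotype, tag 2 against tag 1 gave 47 of 17624 genes in controls (0.267%) and 59 in Exosc10 cKO (0.335%). At an unadjusted p under 0.05 in the same edgeR test there were 632 genes in controls and 1753 in Exosc10 cKO. By that count the tags differed more widely in Exosc10 cKO than in controls.

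**Figure D1:**
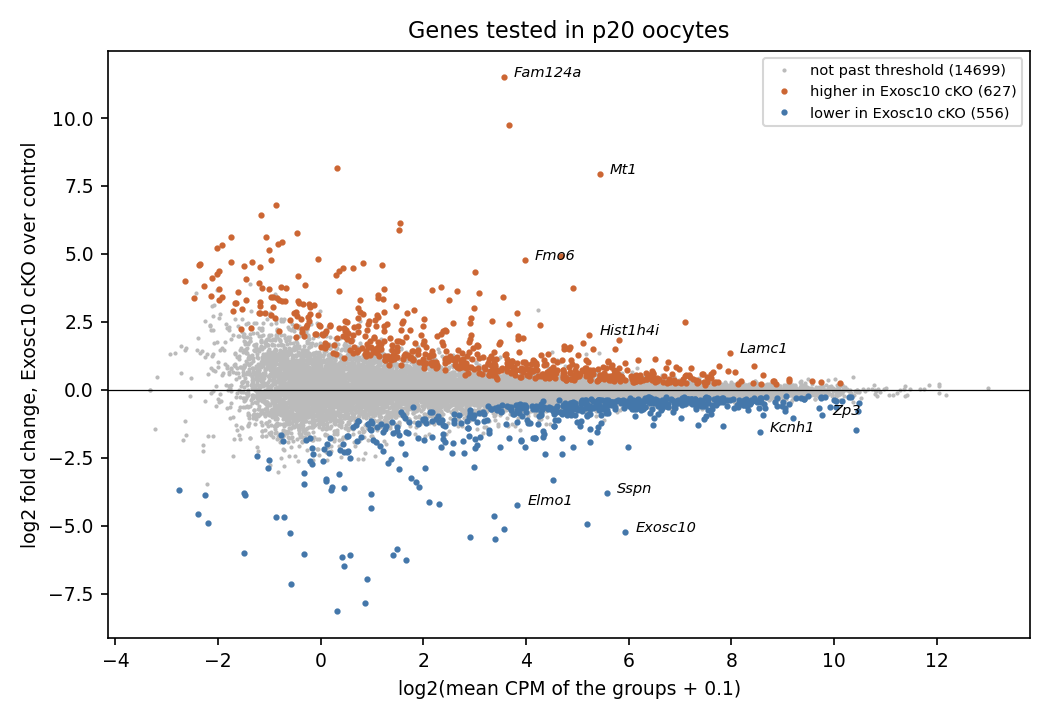
Each point is 1 of 15882 genes, with mean expression on the x axis (log2 CPM) and the log2 fold change of Exosc10 cKO over control on the y axis. The 627 higher and 556 lower genes lie on both sides of 0, and Exosc10 sits at -5.22.

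Histone genes that changed were nearly all higher in Exosc10 cKO. Genes of the Hist1 to Hist4 clusters encode the histones that pack newly made DNA, and their messages normally end in a stem-loop bound by SLBP instead of a poly(A) tail. Of 70 such genes in the files 42 passed the filter on low counts, and of these 12 rose and 1 fell, against 3.95% and 3.5% of all genes tested. The median log2 fold change of the 42 genes was 0.67, against 0.01 over all genes tested. Of the RNA of a library, histone genes took 0.0829% ± 0.0168 (SD, n = 8) in controls and 0.144% ± 0.0553 (SD, n = 8) in Exosc10 cKO, where 7 of 8 libraries lay above the control mean. The log2 difference of 0.73 passed the 2-sided exact permutation test (p = 0.00575, adjusted p = 0.0316 over 11 RNA classes). That class call held in only 8 of 16 comparisons that left out 1 library, with adjusted p from 0.012 to 0.0667, and was lost without Exosc10 cKO 2_4 (0.60, exact permutation test, adjusted p = 0.0538). With ERCC scaling the count of histone genes was again 12 higher and 1 lower, with sums per tag 9 and 0 of 54, and without Exosc10 cKO 2_4 it was 11 and 1 with a median of 0.47.

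4 promoters of the histone locus on chromosome 13 are shown, because the genes that rose and the gene that fell lie in the same cluster. Each is the stretch of 250 bases before the RefSeq start in GRCm38.p6, written 5′ to 3′ on the gene's strand. Hist1h4i (RefSeq name H4c9) has chr13:22041363-22041612 on the minus strand, and Hist1h3e (H3c6) has chr13:23562386-23562635 on the minus strand. Hist1h1e (H1f4) has chr13:23622559-23622808 on the minus strand, and Hist1h2bj (H2bc11) has chr13:22042948-22043197 on the plus strand. Capitals mark matches to CCAAT and to TATAAA, the core letters of the CCAAT box and the TATA box, each searched on both strands (ATTGG and TTTATA on the other strand).
Hist1h4i (H4c9) promoter: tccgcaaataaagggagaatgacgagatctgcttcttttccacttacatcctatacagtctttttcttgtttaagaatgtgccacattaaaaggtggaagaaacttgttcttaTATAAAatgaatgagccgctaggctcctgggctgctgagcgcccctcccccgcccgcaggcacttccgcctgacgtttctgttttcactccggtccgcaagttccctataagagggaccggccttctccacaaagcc
Hist1h3e (H3c6) promoter: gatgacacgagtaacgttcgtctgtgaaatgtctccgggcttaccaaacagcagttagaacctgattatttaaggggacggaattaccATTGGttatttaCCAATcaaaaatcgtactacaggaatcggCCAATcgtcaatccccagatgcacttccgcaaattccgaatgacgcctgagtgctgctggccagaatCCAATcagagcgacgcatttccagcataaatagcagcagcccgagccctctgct
Hist1h1e (H1f4) promoter: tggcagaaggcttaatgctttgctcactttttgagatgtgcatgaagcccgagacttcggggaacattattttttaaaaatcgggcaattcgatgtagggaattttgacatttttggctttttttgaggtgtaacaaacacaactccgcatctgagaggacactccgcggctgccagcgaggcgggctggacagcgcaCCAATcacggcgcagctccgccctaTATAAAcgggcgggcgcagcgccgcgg
Hist1h2bj (H2bc11) promoter: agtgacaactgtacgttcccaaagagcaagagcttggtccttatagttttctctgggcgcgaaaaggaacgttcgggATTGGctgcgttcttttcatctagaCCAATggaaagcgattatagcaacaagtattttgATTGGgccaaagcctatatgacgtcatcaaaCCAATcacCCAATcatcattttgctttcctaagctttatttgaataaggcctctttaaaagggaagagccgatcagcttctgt

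Hist1h4i, which encodes histone H4, had 9.91, 13.4 and 22.7 CPM in controls and 36.9, 57.8 and 86.9 in Exosc10 cKO. Every knockout oocyte was above every control oocyte, with a log2 fold change of 2.03 (SE 0.22, adjusted p = 3.14e-08). Its promoter holds 1 TATAAA match, near the middle of the stretch and not close to the start, and no CCAAT on either strand. Hist1h4h, another H4 gene, was also separated, with 4.53 to 7.14 CPM in controls and 9.17 to 30.7 in Exosc10 cKO (log2 fold change 1.89, SE 0.26). Hist1h3e, an H3 gene whose promoter holds 4 CCAAT matches, had 0.411, 0.889 and 2.15 CPM in controls and 1.76, 9.83 and 16.7 in Exosc10 cKO, with an overlap of the groups at the edge (log2 fold change 3.30, SE 0.46, adjusted p = 5.13e-06). The linker histone gene Hist1h1e, with 1 CCAAT and 1 TATAAA match, rose from a median of 3.37 to 21.9 CPM (log2 fold change 2.82, SE 0.53). The other genes that rose were Hist1h4a, Hist1h4b, Hist1h4d, Hist1h3f, Hist1h3g, Hist1h1a, Hist1h1d and Hist1h2bh, with log2 fold changes of 0.88 to 2.86. So 5 of the 12 encode H4, 3 encode H3, 3 a linker histone and 1 H2B. Hist1h2bj, an H2B gene with 5 CCAAT matches, went the other way, from 16.9, 25.1 and 30.2 CPM to 9.03, 14.9 and 20.8 (log2 fold change -0.69, SE 0.18, adjusted p = 0.011). Its neighbour Hist1h2ag, transcribed outward from the same stretch of sequence, had medians of 0.911 and 0.477 CPM and was not called.

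The genes called were all in the chromosome 13 locus, where 13 of 33 tested histone genes and 0 of 12 other tested genes between them were called. With 5 Mb on each side of the locus, 5 of 52 other genes were called (9.62%), 1 higher and 4 lower. A single promoter was found for 36 of the 42 tested genes. CCAAT was present in 30 of these 36 (83.3%) against 33.8% of 32851 promoters of all genes, and TATAAA in 17 (47.2%) against 12.4%. Among the genes that rose, 8 of 11 had CCAAT and 5 of 11 TATAAA. Among those not called, the numbers were 21 and 12 of 24. Slbp, which encodes the stem-loop binding protein, rose from 549, 672 and 761 CPM to 743, 834 and 922 (log2 fold change 0.31, SE 0.09, adjusted p = 0.0176), a call that was lost with ERCC scaling. Copies of a histone type are near-identical in sequence, and how the counting treated reads that match several copies is not stated, so values of single copies are uncertain. Values in the other knockouts share the same controls. Hist1h4i averaged 21.3 CPM in Dis3 cKO and 125 in dcKO, and was higher in Exosc10 cKO than in Dis3 cKO (log2 fold change 1.49, adjusted p = 3.8e-06). Hist1h4h averaged 6.25 CPM in Dis3 cKO and 47.0 in dcKO (log2 fold change of Exosc10 cKO over Dis3 cKO 1.85, adjusted p = 2.82e-06), whereas Hist1h3e averaged 5.84 and 11.9 and the same contrast was not called (0.78, adjusted p = 0.262).

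**Figure D2:**
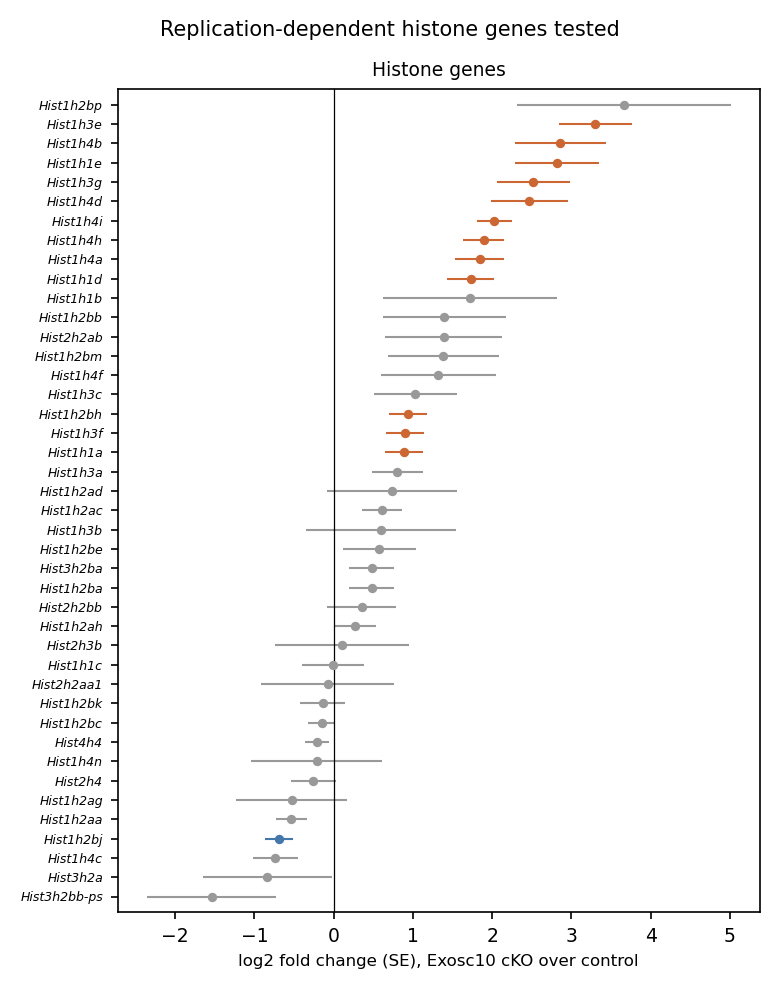
The log2 fold change of Exosc10 cKO over control is shown for each of 42 tested histone genes, with bars of 1 SE. 12 genes past the threshold lie above 0 and 1, Hist1h2bj, below it.

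Genes typed as long noncoding RNA that changed were mostly higher. Of 1011 tested long noncoding RNA (lncRNA) genes, 86 were higher and 14 lower (9.89% called, against 7.45% of all genes tested), with a median log2 fold change of 0.24. Genes with no biotype found leaned the same way, with 109 higher and 28 lower of 1412 (9.70% called) and a median of 0.14. Protein-coding genes gave 395 higher and 476 lower of 12801 (6.80% called) with a median of 0.01. Pseudogenes gave 31 higher and 35 lower of 585 (11.3% called) with a median of -0.10. For 22 tested genes typed as small nucleolar RNA there were 0 calls, with a median of -0.42. The split among lncRNA genes was 34 to 7 with ERCC scaling, 15 to 0 with sums per tag, 37 to 12 in tag 1 alone and 19 to 4 in tag 2 alone. As a share of all counts, lncRNA genes held 1.19% ± 0.0466 (SD, n = 8) in controls and 1.25% ± 0.108 (SD, n = 8) in Exosc10 cKO (2-sided exact permutation test, adjusted p = 0.278). Exosc10 cKO 2_4 was the highest of its group at 1.49%, with the next library at 1.3%. Genes with provisional Gm or Rik symbols gave 219 higher and 76 lower of 2921 (7.5% and 2.6%, against 3.95% and 3.5% of all genes tested). Zinc finger genes of the Zfp series, which encode DNA-binding repressors and activators, gave 30 higher and 7 lower of 333 (9.01% and 2.1%) with a median of 0.21, and 10 and 2 with ERCC scaling. Zfp109 rose from 31.4, 41.5 and 48.1 CPM to 68.9, 81.9 and 93.5 (log2 fold change 1.00, SE 0.16) and Zfp971 from a median of 0.883 to 6.47 CPM (2.96, SE 0.41), whereas Zfp618 fell from 66.0 to 25.4 CPM (-1.23, SE 0.18).

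RNAs that EXOSC10 is known to process were sparse in these libraries. Symbols marked 147 genes in the files as small nucleolar or Cajal body RNA, a different set from the 22 tested genes typed by RefSeq biotype. Only 16 of the 147 passed the filter, and 1 of them was called (6.25%, against 7.45% of all genes tested), a call that was lost with ERCC scaling. That gene, Scarna13, guides modification of small nuclear RNA and fell by 0.69 on the log2 scale (SE 0.20, medians 27.6 and 17.2 CPM), but it overlaps its host Snhg10. As a class of 1117 genes in the files, taken by biotype or symbol, small nucleolar RNA genes held 0.0125% ± 0.00123 (SD, n = 8) of control counts and 0.0129% ± 0.00308 (SD, n = 8) of Exosc10 cKO counts (exact permutation test, adjusted p = 0.916). Of 8 tested genes for small nuclear RNAs and other short structural RNAs 2 rose (25%, against 3.95% of all genes tested): Rmrp, the RNA of RNase MRP, from a median of 3.89 to 9.54 CPM, and Rnu11, of the minor spliceosome, from 0.144 to 0.632 CPM. Both calls were lost with ERCC scaling, which left 0 of 8. Residual counts at ribosomal RNA-like genes fell from 0.000457% ± 0.000101 to 0.000239% ± 9.75e-05 (SD, n = 8 each), with all 8 knockout libraries below the control mean (exact permutation test, adjusted p = 0.0154, and called in 16 of 16 comparisons that left out 1 library). The 5S-like gene n-R5s136 was the only tested member of that class and fell by 1.45 on the log2 scale (SE 0.35). Its means in tags 1 and 2 were 3.71 and 2.97 CPM in controls, and its call was lost with sums per tag and in each tag alone. The counts of n-R5s136 are part of the class share, so the 2 results are not separate. Ribosomal RNA was depleted from these libraries, so this share does not measure ribosomal RNA in the oocyte. Among 83 factors of ribosomal RNA processing, Utp3 rose (log2 fold change 0.38, SE 0.10) and Rrp12 and Nop9 fell (-0.38 and -0.37). These 3 are 3.61% of the group, against 7.45% of all genes tested, and with ERCC scaling 0 of them were called.

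Among the exosome's own parts, 1 subunit changed beside the targeted one. Of 12 tested ribonucleases and core subunits 2 were lower (16.7%, against 3.5% of all genes tested). 1 of the 2 is the deleted Exosc10 itself, lower by design, so that share does not measure a response. The other is Exosc9, a ring subunit, with 43.5, 51.4 and 62.5 CPM in controls and 26.8, 33.0 and 45.8 in Exosc10 cKO (log2 fold change -0.60, SE 0.18, adjusted p = 0.0379). Exosc9 overlaps Ccna2, its call was lost with ERCC scaling and in 10 of 16 fits that left out 1 library, and the groups overlapped. Of 25 cofactors that bring RNA to the exosome 4 rose and 0 fell (16% higher, against 3.95% of all genes tested). Srrt (ARS2), which links the cap-binding complex to RNA decay, rose in every library, from 37.2, 40.2 and 47.6 CPM to 55.2, 67.7 and 78.5 (log2 fold change 0.71, SE 0.10, adjusted p = 6.78e-06). Ncbp2, the small cap-binding subunit, was also separated, with 29.4 to 35.9 CPM in controls and 36.8 to 48.4 in Exosc10 cKO (0.37, SE 0.10). Zcchc7, of the TRAMP complex that tails nuclear RNA, had a log2 fold change of 0.56 (SE 0.13), and Zfc3h1, the scaffold of the poly(A) tail exosome targeting connection, one of 0.35 (SE 0.10). With ERCC scaling, with sums per tag and in each tag alone, 1 of these 4 calls remained, that of Srrt. Mtrex, the helicase shared by the nuclear adaptors, had medians of 95.3 and 90.3 CPM and a log2 fold change of -0.01 (adjusted p = 0.953).

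In a list of zona pellucida, secreted and other oocyte factors, and in one of maternal effect genes, the messages that changed were all lower. Of the 26 tested genes of the first list 6 fell and 0 rose (23.1% lower, against 3.5% of all genes tested), with a median log2 fold change of -0.12 against 0.01. Zp3, a glycoprotein of the zona matrix, had 1019, 1121 and 1399 CPM in controls and 403, 611 and 830 in Exosc10 cKO, so that no knockout oocyte reached the lowest control (log2 fold change -0.94, SE 0.18, adjusted p = 0.000395). Zp1 fell from 540, 608 and 715 CPM to 289, 415 and 522 (-0.60, SE 0.13), while Zp2 had medians of 1522 and 1096 CPM and was not called (-0.44, adjusted p = 0.0832). Izumo1r, the egg's receptor for sperm IZUMO1, fell from 71.5, 87.1 and 110.3 CPM to 24.97, 61.0 and 67.6 (-0.70, SE 0.15), and Npm2, a nuclear histone chaperone and neither a coat nor a secreted protein, from 420.4, 445 and 458 to 265, 317 and 405 (-0.44, SE 0.09). The other 2 that fell were Zar1, a cytoplasmic RNA-binding protein, and Astl, a protease that acts on the zona, with log2 fold changes of -0.46 and -0.58. The growth factors Gdf9 and Bmp15, which signal to granulosa cells, were not called, with values of 0.22 (adjusted p = 0.113) and 0.18 (adjusted p = 0.202).

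Of 25 members of the subcortical maternal complex and other maternal effect genes 6 fell and 0 rose (24% lower, against 3.5% of all genes tested), with a median of -0.17 against 0.01. Uhrf1, which guides maintenance of DNA methylation, had 414, 509 and 558 CPM in controls and 262, 312 and 383 in Exosc10 cKO without overlap (log2 fold change -0.65, SE 0.11, adjusted p = 6.17e-05). Padi6, needed for the cytoplasmic lattices of the egg, fell from 1477, 1752 and 2033 CPM to 638, 1047 and 1431 (-0.78, SE 0.18), again without overlap. Nlrp9c, Tle6, Nlrp4c and Smarca4 also fell, by 0.53, 0.39, 0.41 and 0.34 on the log2 scale. The calls in both lists depended on the scaling and on what counts as a sample. The medians did not shrink with ERCC scaling, at -0.14 for the zona list and -0.19 for the maternal effect list. With ERCC scaling 1 gene of the zona list and 0 of the maternal effect list were called, and with sums per tag 0 and 1. In tag 1 alone 2 of the zona list were called, and in tag 2 alone 5. Zp3, Zp1 and Padi6 averaged 789, 532 and 1252 CPM in Dis3 cKO and 1441, 686 and 2400 in dcKO. Zp1 was lower in Exosc10 cKO than in Dis3 cKO (log2 fold change -0.40, adjusted p = 0.0437), and the same contrast was not called for Zp3 and Padi6.

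**Figure D3:**
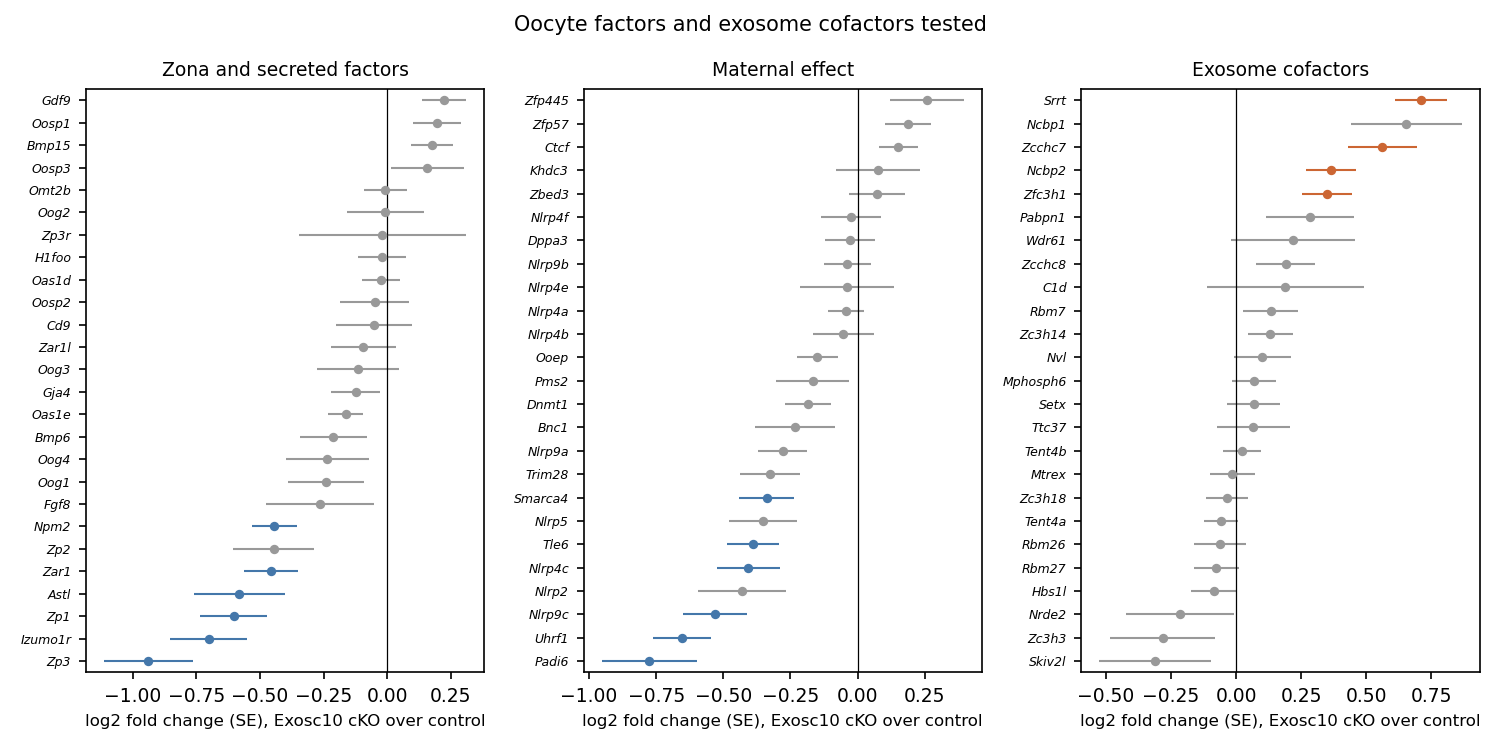
The log2 fold change of Exosc10 cKO over control is shown with bars of 1 SE for zona pellucida, secreted and other oocyte factors, maternal effect genes and exosome cofactors. 6 genes of the first list and 6 maternal effect genes past the threshold lie below 0, and 4 cofactors lie above it.

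Single genes with very large changes stood apart from these small group shifts. Fam124a was at 0 counts in all 8 controls and at 11.8, 24.3 and 32.9 CPM in Exosc10 cKO, which is at least 1103-fold higher against a floor of 3 counts over the control group. Its mean was 0.0447 CPM in Dis3 cKO and 0.106 in dcKO. AC127234.1, an unlocated transcript, had 3 counts in controls and 3770 in Exosc10 cKO, a ratio of 1171 with a 95% interval of 400.5 to 5682 that covers counting error only. Mt1, the metal-binding metallothionein, was near 0 in controls, with 0, 0.349 and 0.717 CPM, and rose to 51.8, 77.2 and 128.8 CPM (log2 fold change 7.93, SE 0.33, adjusted p = 2.54e-19). Mt1 averaged 76.4 CPM in Dis3 cKO and 71.6 in dcKO, and the contrast of Exosc10 cKO with Dis3 cKO was 0.17 (adjusted p = 0.705).

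**Figure D4:**
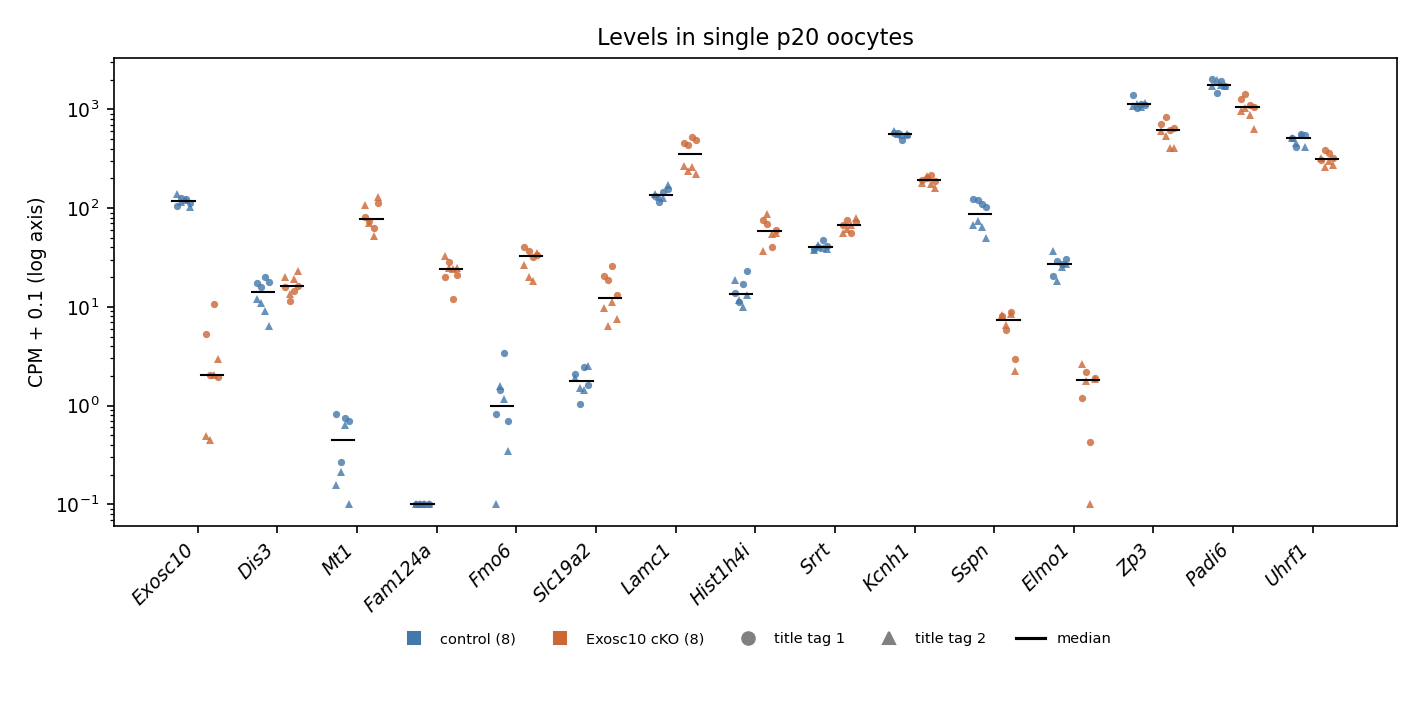
CPM plus 0.1 on a log axis is shown for 15 genes in each of 8 control and 8 Exosc10 cKO libraries, with circles for tag 1, triangles for tag 2 and a bar at the group median. Mt1 and Fam124a lie near the floor in controls and above 11 CPM in Exosc10 cKO, and the Lamc1 values of the tags lie apart in Exosc10 cKO.

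Other genes near silence in controls were Fmo6, a flavin monooxygenase, with 0, 0.891 and 3.29 CPM against 18.1, 32.5 and 39.8 (log2 fold change 4.78, SE 0.62), and Tmem175, a lysosomal channel, with 0.697, 1.32 and 3.15 CPM against 24.7, 45.8 and 75.7 (4.93, SE 0.63). Tmem175 overlaps Dgkq and Fmo6 overlaps Gm32279, and since the use of strand is not stated, reads of such pairs cannot be told apart. Tmem175 averaged 53.4 CPM in Dis3 cKO, while in dcKO it had 1.20 in tag 1 and 35.1 in tag 2. Fmo6 averaged 0.493 CPM in Dis3 cKO and 0.231 in dcKO. Stk36, a kinase of cilia, rose from 29.9, 40.2 and 53.6 CPM to 166, 232 and 319.7 (2.51, SE 0.30) and averaged 240.3 CPM in Dis3 cKO, but it overlaps Rnf25. The others with the highest changes were Gm10401, Myo18b, Gm16548, Gm7868, B930036N10Rik, Gm45553 and Gm15486, with log2 fold changes of 3.63 to 6.14. Gm16548 overlaps F5 and Selp, Gm15486 overlaps Sec16b, and Myo18b overlaps 1700095B10Rik. Of the 12 highest genes 7 have Gm, Rik or clone names. Gm and Rik symbols made up 2921 of the 15882 genes tested, and clone names were not counted over all genes.

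Large losses also occurred in genes that controls express. Sspn, a membrane protein of the dystrophin complex, fell from 49.8, 87.6 and 122.8 CPM to 2.14, 7.17 and 8.74 (log2 fold change -3.80, SE 0.24, adjusted p = 3.39e-14). Elmo1, which acts with DOCK proteins to activate Rac, fell from 18.1, 26.99 and 37.0 CPM to 0, 1.71 and 2.52 (-4.25, SE 0.33), and overlaps Gm32036. Both were also lower than in Dis3 cKO, where they averaged 60.6 and 13.4 CPM (log2 fold changes of -3.26 and -3.25). In dcKO, which also lacks Exosc10, Sspn and Elmo1 averaged 35.5 and 19.2 CPM. Against control, dcKO was lower for Sspn (-1.32, adjusted p = 3.66e-06) and was not called for Elmo1 (-0.48, adjusted p = 0.147). Rassf4, with a median of 23.4 CPM in controls and 0.267 in Exosc10 cKO (-5.13, SE 0.78) and an overlap with Depp1, was also low in Dis3 cKO at 0.463 CPM, as was Ccdc85a at 0.0674 CPM against control and Exosc10 cKO medians of 5.45 and 0. Rhbdf1 went from 12.1, 21.1 and 25.7 CPM to 0, 0.252 and 1.31 and averaged 0.339 CPM in Dis3 cKO, while in dcKO it had 18.7 in tag 1 and 0.29 in tag 2. The remaining genes of the 12 lowest, beside Exosc10, were Gm10466, Olfr1349, Cltrn, Isoc2a, Ccbe1 and Trh. A330087D11Rik, lower still but less abundant, had 482 counts in controls and 1 in Exosc10 cKO (ratio 517, 95% interval 92.4 to 20470).

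Of 28 tested potassium channel genes 2 fell, Kcnh1 and Kcnk1 (7.14% lower, against 3.5% of all genes tested), and 1 was called with ERCC scaling. Kcnh1, a voltage-gated channel with the lower p of the 2, fell from 489, 561 and 605 CPM to 159, 191 and 215 (log2 fold change -1.55, SE 0.09, adjusted p = 7.33e-15) with tags close together, and averaged 540.0 CPM in Dis3 cKO and 596 in dcKO. Among called genes without overlap between the groups, the 5 most abundant lower ones were CT010467.1, Padi6, Ski, Myo5b and Zp3. CT010467.1, for which no position or biotype was found, fell from 1511, 1942 and 2528 CPM to 161, 669.9 and 1451, with a wide spread among the knockout libraries (log2 fold change -1.48, SE 0.33, adjusted p = 0.0037). Myo5b, a motor of vesicle traffic, fell from 1066, 1292 and 1405 CPM to 732, 813 and 948 (-0.63, SE 0.07). Ski, a repressor of TGF-beta signals, fell from 1187, 1302 and 1433 CPM to 793, 988 and 1174 (-0.42, SE 0.09). The 5 most abundant higher ones, chosen in the same way, were Lamc1, Tnfaip8, Gpr137c, Stk36 and Mfap3. Lamc1, a laminin chain of basement membranes, rose from 116, 136 and 171 CPM to 223, 352 and 526 (1.37, SE 0.16), with means of 476 CPM in tag 1 and 245 in tag 2 of Exosc10 cKO (adjusted p = 0.000361 between the tags). Both tags of Lamc1 lay above all controls. Tnfaip8 went from 133 to 219.5 CPM in controls to 253 to 364 in Exosc10 cKO (0.71, SE 0.16), Gpr137c from 130.0 to 177 CPM to 187 to 295 (0.58, SE 0.13), and Mfap3, a microfibril-associated protein, from 95.2 to 122 CPM to 132 to 208 (0.52, SE 0.10). Tnfaip8 overlaps C030005K06Rik and Gm33335, and Mfap3 overlaps Fam114a2. Lamc1 overlaps Gm8818, and Myo5b overlaps 4 other genes.

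Other gene groups gave the following calls. Interferon and double-stranded RNA response genes gave 0 calls of 14 tested by edgeR, with 1 at an unadjusted p under 0.05 and 0 called by DESeq2. For mRNA deadenylation and decay factors the calls were 0 of 44, with 4 at an unadjusted p under 0.05 and 1 called by DESeq2. Of 35 p53, damage and stress genes 2 rose (5.71%, against 3.95% of all genes tested), Mt1 and Ccng1. Ccng1, the p53 target cyclin G1, went from a median of 7.95 to 15.1 CPM (log2 fold change 0.86, SE 0.25, adjusted p = 0.028), and its call was lost with ERCC scaling. Mitochondrially encoded genes gave 0 calls of 17, with 2 at an unadjusted p under 0.05 and 1 called by DESeq2, and cytosolic ribosomal protein genes 1 lower of 79, Rplp0 (1.27%). Of 47 genes of meiotic arrest and resumption 3 were called (6.38%, against 7.45% of all genes tested). Cdc25b, the phosphatase that activates CDK1, fell from 86.5, 97.9 and 104 CPM to 40.4, 61.5 and 80.2 (-0.64, SE 0.12), Arpp19, an inhibitor of the opposing phosphatase PP2A, rose from a median of 154 to 209 CPM (0.48, SE 0.09), and Mapk3 fell by 0.30. With ERCC scaling 0 of these 47 genes were called. Endomembrane and vesicle traffic genes gave 5 lower of 88 (5.68%, against 3.5% lower of all genes tested), and solute carriers 2 higher and 6 lower of 242 (0.826% and 2.48%). With ERCC scaling 0 genes of either group were called lower. Slc19a2, a thiamine transporter, rose from 0.941, 1.65 and 2.39 CPM to 6.24, 12.1 and 25.7 (3.03, SE 0.33). Of 26 cleavage and polyadenylation genes Pabpc4, Pabpc1l and Cpsf2 fell (11.5%, against 3.5% lower of all genes tested) and Slbp rose. With ERCC scaling only Pabpc4 of these 4 was called.

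The calls were unevenly spread along chromosomes, a pattern found after the values were seen and given as a description with no test. On chromosome 1 from 150 Mb on, 66 of 269 tested genes were called (24.5%), 37 higher and 29 lower, against 38 of 621 on the rest of that chromosome (6.12%) and 980 of 14201 located genes outside the stretch (6.90%). Lamc1, Fmo6, Slc19a2, Gm16548, Gm15486 and Kcnh1 all lie there. 34 of the 269 genes had no overlap between the groups (12.6%, against 1.52% of located genes outside the stretch). Dis3 cKO against the same controls gave 10 calls in the stretch (3.72%). In that contrast 11.3% of genes on the rest of the chromosome and 7.43% of located genes outside the stretch were called. 16 of the 59 genes that differed between the tags of Exosc10 cKO also lie there and 0 of the 47 of controls. Dnm3, a dynamin, had 19.0 to 29.1 CPM in controls and, in Exosc10 cKO, means of 0.207 in tag 1 and 12.5 in tag 2, and Tbx19, a T-box factor, 38.8 to 56.4 CPM in controls and means of 1.94 and 20.7. Aldh9a1, an aldehyde dehydrogenase, fell from 217, 231 and 239.5 CPM to 59.0, 96.3 and 129 (-1.29), and Tdrd5, of the piRNA pathway, from 442, 458 and 479 to 213, 278 and 389.9 (-0.67), both also split by tag. Of 234 windows of 10 Mb with at least 20 tested genes, 3 had 25% or more called. Those at 160 to 170 Mb (26 of 71) and 190 to 200 Mb (9 of 29) of chromosome 1 lie within that stretch. The window at 70 to 80 Mb of chromosome 18 (11 of 40) lies outside it. Chromosome 5 as a whole had 105 of 948 genes called (11.1%), and 11 of its genes differed between the tags of Exosc10 cKO and 5 between those of controls. Within 10 Mb of Exosc10 itself, on chromosome 4, 11 of 189 genes were called (5.82%). Strain background and litters are not given in the sources used here, and their part in these values was not tested.

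**Figure D5:**
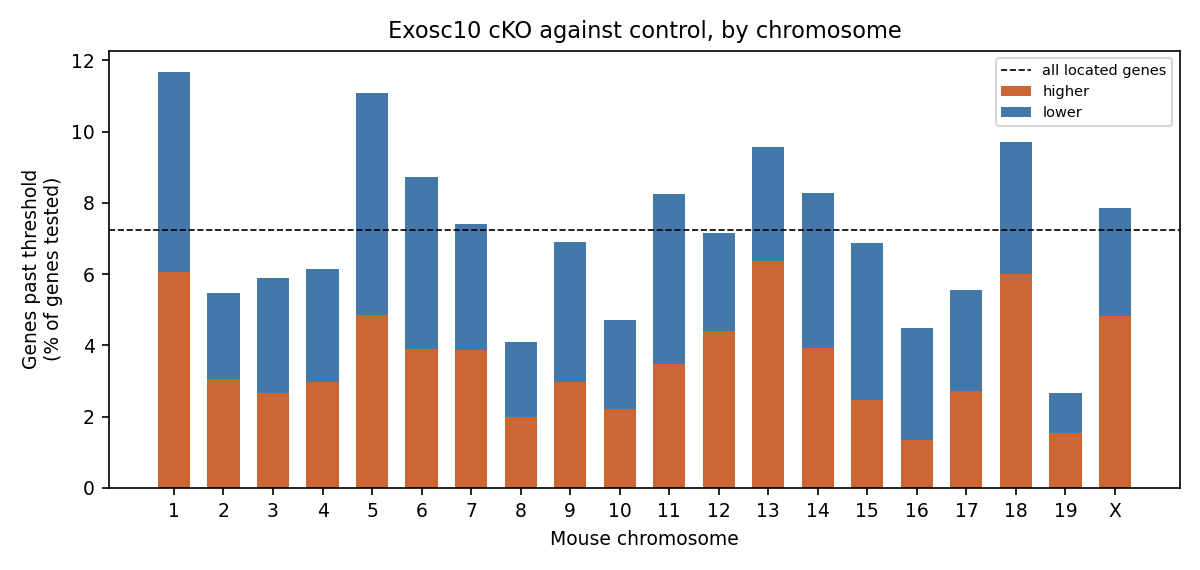
Bars give the percent of tested genes called higher and lower in Exosc10 cKO for each chromosome, starting at 0, and the dashed line is the 7.23% of all located genes. Chromosome 1 reaches 11.7%, chromosome 5 has 11.1% and chromosome 19 has 2.66%.

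Loss of EXOSC10 was also compared directly with loss of DIS3, which needs no controls. Dis3 cKO libraries were shallower, with 9566019 to 15335017 gene counts. 1585 of 15882 genes differed between Exosc10 cKO and Dis3 cKO (9.98%), 795 higher and 790 lower in Exosc10 cKO, and 416 with sums per tag. This comparison and that against control share the 8 Exosc10 cKO libraries, so their values are not independent. Kcnh1 had a log2 fold change of -1.50 against Dis3 cKO (-1.55 against control), and Lamc1 one of 1.42 (1.37 against control). In dcKO, which also lacks Exosc10, Lamc1 averaged 139 CPM, with a log2 fold change of -0.00117 against control (adjusted p = 0.995). For Mt1, Stk36, Tmem175, Rassf4, Rhbdf1 and Srrt the contrast with Dis3 cKO was not called, with log2 fold changes between -0.12 and 0.56. Uhrf1 was lower than in Dis3 cKO (log2 fold change -0.38, adjusted p = 0.0147), and Arpp19 higher (0.86, adjusted p = 1.03e-08).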

How the data were processed

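Single p20 oocytes were sequenced after ribosomal RNA depletion with the Ovation Solo kit and random hexamers, per the labels' protocols. The authors deposited raw read counts, 1 table of genes and 1 of ERCC RNAs per library. The submitters' processing notes name cutadapt 2.5, STAR 2.7.2a, SAMtools 1.9, HTSeq 0.9.1 and the mm10 build. The annotation release, the handling of shared reads and the use of strand are not given in the sources used here.

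In R 4.3.3, edgeR 4.0.16 was fitted to the counts of the 4 p20 groups together, after filterByExpr and with TMM scaling. P-values come from its quasi-likelihood test, with Benjamini-Hochberg adjustment over 15882 genes. DESeq2 1.42.0, other scalings and filters, a tag term, sums per tag, each tag alone, a replicate block and leaving out each library were alternatives. The fit was also run on simulated data, and no outcome of that run is given or used here. RNA class shares and ERCC ratios were compared with 2-sided exact permutation tests.

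Of 55487 gene IDs, 99.4% had a symbol, and 69.5% matched RefSeq GRCm38.p6, which gave positions, biotypes and promoters. Named genes are Exosc10 and Dis3, then, among called genes without overlap and with a mean of at least 5 CPM in a group, the 12 highest and 12 lowest by fold change and the 5 most abundant in each direction, and up to 4 called members of each gene list. Further list members and the genes of chromosome 1 were named after their values were seen. The members and lists were chosen with earlier results of these data known. Whether replicates came from separate females is not stated, so p-values measure the spread between these oocytes.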

Additional observations from a re-analysis of the deposited data

Results flagged for a closer look

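In 94 groups of 8 values tested for a single outlying library, 9 stood apart, where chance gives about 1 in 20. 5 of the 9 belong to 1 library, Exosc10 cKO 2_4. Its gene counts per ERCC count were 582.2, with the next library at 1114. Its share of counts from mitochondrially encoded genes was 1.618% (next 0.9495%), from lncRNA genes 1.488% (next 1.298%), from other small RNA classes 0.05392% (next 0.03612%) and from protein-coding genes 95.44% (next 96.5%). Without it 1119 genes were called against control, 618 higher and 501 lower.

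The other 4 were single genes. Zp3 was at 1399 CPM in control 1_1, with the next control at 1158. Fmo6 was at 3.287 CPM in control 1_3 (next 1.463), AC127234.1 at 0.1793 CPM in control 1_1 (next 0) and Ccdc85a at 0.6667 CPM in Exosc10 cKO 2_3 (next 0.05764). In each of these genes the 8 control and 8 Exosc10 cKO libraries still did not overlap.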

How the results depend on the processing

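Against 1183 calls (627 higher, 556 lower), ERCC scaling gave 364 (214 and 150), sums per tag 174 (112 and 62), tag 1 alone 615 (341 and 274) and tag 2 alone 431 (193 and 238). ERCC scaling without Exosc10 cKO 2_4, chosen after seeing the data, gave 445 (312 and 133). Leaving out 1 library gave 924 to 1360 calls, 494 to 755 higher and 430 to 620 lower. RLE scaling gave 1186, no filter 1097, the stricter filter 1175, 2 groups alone 1198, a tag term 1247 and DESeq2 1529. The fit with a replicate block (tag and oocyte number) gave 1106 calls, but same-numbered oocytes did not deviate together (r from -0.254 to 0.217, over 0.1 in 2 of 8 pairs, and 1 control correlated best with its own number), so the number is no pairing. All 1183 genes kept their sign with ERCC scaling, with the block, with sums per tag and with DESeq2. In tag 1 alone 1177 of them were tested with the same sign, and in tag 2 alone 1168. These settings reuse the counts that chose the genes, so kept signs are no separate support for the calls. Exosc10 cKO against Dis3 cKO gave 416 calls with sums per tag, and tag 2 against tag 1 with ERCC scaling 25 in controls and 24 in Exosc10 cKO.

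The ERCC ratio difference of -0.08 turned positive with group medians (0.0421), in tag 1 alone (0.155) and without Exosc10 cKO 2_4, with -0.1297 to 0.0674 over left-out libraries. Of 11 RNA classes 2 passed the threshold, 1 to 4 when a library was left out (chosen after seeing the data, 1 without Exosc10 cKO 2_4 and 4 without Exosc10 cKO 1_3), 1 without mitochondrial and ribosomal RNA-like genes and 0 in tag 1 alone and in tag 2 alone, where 4 against 4 oocytes allow few small p-values. Differences that changed sign, none of them past the threshold, were Dis3 in tag 1 alone (-0.3069), shares per ERCC count of lncRNA (-0.0103) and small nucleolar RNA (-0.0649), shares in tag 1 alone of miRNA (0.1038), mitochondrially encoded (-0.1234), protein-coding (0.0007), snRNA (-0.0969) and snoRNA genes (-0.2233), and of other small classes in tag 2 alone (0.0643). The cause was not tested. Among 104 named genes, 56 calls were lost with ERCC scaling and 68 with sums per tag. Small RNA classes rest on few reads, with under 0.02% of counts each for snRNA and snoRNA genes. Ribosomal RNA-like genes, a called class, held at most 0.000604% of counts in any library.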
